A study of Mus musculus with 2 samples.

Results

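The glutathione S-transferases (GSTs), the aldehyde dehydrogenases (ALDHs) and the flavin-containing monooxygenases (FMOs) were followed in osteoblastic cells of Ebf2+/- and Ebf2-/- mice. Members were the probe sets of the array annotated with exactly 1 gene symbol of a cytosolic GST (class alpha, mu, omega, pi, theta, kappa or zeta), a microsomal GST (Mgst), an Aldh or an Fmo gene. This gave 78 of 45101 probe sets and 47 of 18194 genes, of which 20 were cytosolic GST genes, 3 Mgst genes, 20 Aldh genes and 4 Fmo genes. Another 3 probe sets of these families carried several symbols and were left out by that rule.

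Both groups were C57Bl/6 embryos at stage E18.5 with a lacZ marker in the Ebf2 locus; the controls were heterozygous for Ebf2, and wild-type cells were not analysed here. Tibial and femoral bone cells were sorted for beta-galactosidase activity with the fluorogenic substrate FDG, and the source description adds that they were expanded in alpha MEM with 10% serum without passage. The labels give 3 mice per genotype, but each genotype is represented by 1 array, and whether RNA was pooled is not stated. With 1 array per genotype no test between genotypes was possible, so every value is a single measurement and a difference is described by its size, with 2-fold as the reference.

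GSTs join the tripeptide glutathione to reactive, electrophilic compounds, which makes them easier to export. ALDHs oxidise aldehydes to acids. Some clear products of lipid peroxidation or ethanol, and some serve amino acid and folate metabolism. Aldh1a1, Aldh1a2 and Aldh1a3 make retinoic acid, a signal in skeletal development, from retinal. FMOs oxidise nitrogen and sulphur atoms of drugs and metabolites with the help of flavin and NADPH. Many GST and ALDH genes are targets of the stress-responsive transcription factor NRF2, encoded by Nfe2l2, which binds antioxidant response elements (AREs).

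Signals are MAS5 values, a linear intensity in arbitrary units. The background floor, the 95th percentile of 86 probe sets that target chemosensory receptors (olfactory, vomeronasal or taste), was 17.8 on the Ebf2+/- and 23.8 on the Ebf2-/- array. Of 5 osteoblast markers above the floor on both arrays, 4 had the higher signal in Ebf2-/-, 2 of them (Col1a1 and Alpl) by at least 2-fold, with a median log2 ratio of 0.93 and a summed signal of the list of 14247.7 against 27998.5. Col1a1 read 5478 in Ebf2+/- and 12784 in Ebf2-/-, and osterix (Sp7), the one with the lower signal, 83.7 and 53.3, whereas the mineralising-stage genes Ibsp, Dmp1 and Phex were under the floor on both arrays; Runx2, Bglap and Spp1 had no probe set with 1 symbol. Markers of other cells moved between the arrays. All 14 measured macrophage and leukocyte markers were at least 2-fold lower in Ebf2-/- (summed signal of the list 14090.4 against 3942), as were 7 of 11 measured chondrocyte markers (18106 against 6032.4) and 3 of 4 Schwann cell markers (938 against 276). In the other direction, 5 of 9 mesenchymal progenitor and fibroblast markers (23635 against 32432) and 5 of 6 measured adipocyte markers (834 against 2910.2) were at least 2-fold higher in Ebf2-/-, and the adipocyte marker Cd36 was lower. In these bulk samples, fewer cells of a type and less RNA per cell cannot be told apart. The 3' over 5' signal ratio of beta-actin, a sign of RNA integrity, was 1.97 in Ebf2+/- and 2.79 in Ebf2-/-. What part these markers and the RNA quality have in the values below was not tested.

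In Ebf2-/- cells, 8 of the 47 genes had at least 2-fold higher signal: Fmo1, Aldh1a2, Gstt1, Aldh3b2, Mgst1, Aldh1a3, Gstm2 and Aldh18a1. Only Aldh1a7 and Aldh1a1 were at least 2-fold lower by the values used here. Of 38 genes above the floor on at least 1 array, these were 21.1% higher and 5.26% lower, beside 6.30% and 3.46% of the 11785 genes measured in the same way over the whole array. Another 26 members were not past 2-fold by the values used here. Among them Gstt2, Gsta3, Aldh1b1, Aldh5a1 and Aldh8a1 were under the floor on 1 array, so their folds are lower bounds and the true difference may be larger. A further 2 (Gstm6 and Aldh4a1) were just above the floor in Ebf2+/- only and have no fold, and 9 were under the floor on both arrays. Among the 29 members above the floor on both arrays, 6 were at least 2-fold higher and 2 lower, 20.7% and 6.90%, beside 5.90% and 3.02% of 10057 genes. The median log2 ratio of these 29 was -0.03, and 14 had the higher and 15 the lower signal in Ebf2-/-; the median over all 10057 genes was 0.00. The quartiles were -0.19 and 0.78 for the members and -0.30 and 0.35 for all genes. The split between directions moved with the scaling: when bacterial and phage spike-in transcripts set the scale, which puts the median of all genes at -0.17, 5 members were at least 2-fold higher and 4 lower. The split over all genes moved the same way. Of 11785 measured genes, 528 were higher and 625 lower with this scaling, against 742 and 408 as reported.

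**Figure D1:**
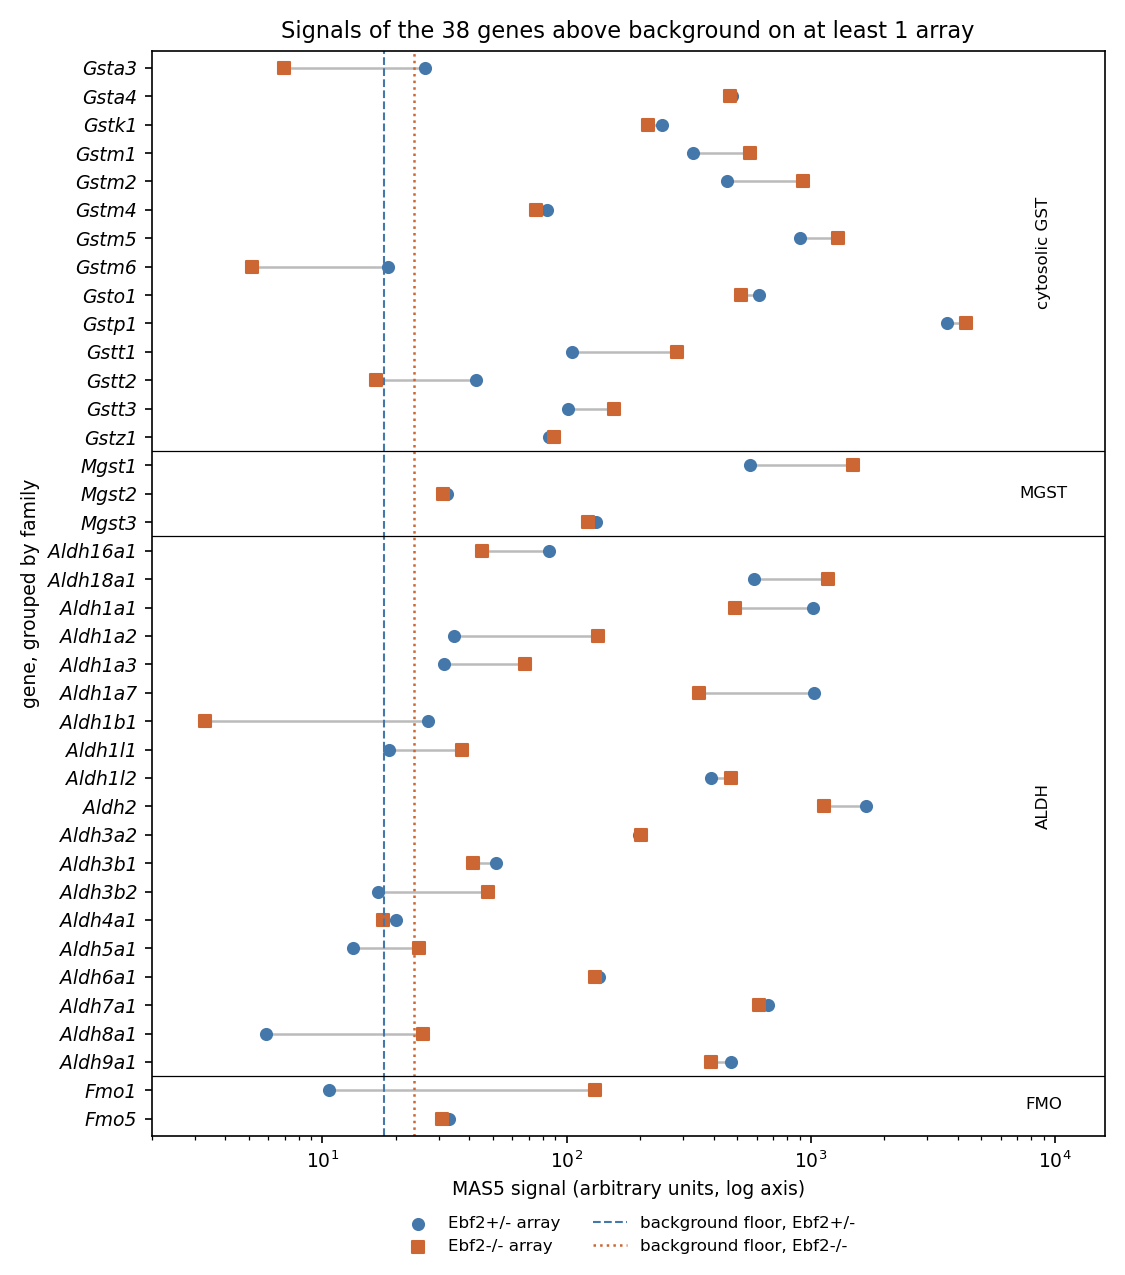
MAS5 signals (log axis, arbitrary units) of the 38 member genes above the background floor on at least 1 array, by family; each gene has a circle for the Ebf2+/- and a square for the Ebf2-/- array, and the vertical lines are the floors of 17.8 and 23.8. Distances are to be read along a row, since signals of different probe sets are not comparable; Fmo1 runs from below the floor to 131, while Aldh1a1 and Aldh1a7 run the other way.

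Error within the arrays can be judged from probe sets that target the same gene. Over 4119 genes with several probe sets above the floor on both arrays, their log2 ratios had a pooled SD of 0.44, a factor of 1.36. The mean log2 ratio of the 18 spike-in probe sets was 0.18 ± 0.15 (SD). Neither contains the variation between animals or cultures. Among the members 4 genes had several probe sets above the floor on both arrays: those of Gstm1 and Gsto1 ran in 1 direction each, and those of Aldh18a1 and Aldh9a1 did not. Most members therefore rest on a single probe set. Over those 4 genes alone the pooled SD was larger, 0.82, a factor of 1.77. Of the members past 2-fold, Aldh18a1 (log2 ratio 1.01), Gstm2 (1.02), Aldh1a1 (-1.06) and Aldh1a3 (1.10) had ratios little larger than that.

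Cytosolic GSTs were considered first. Of 20 genes, 14 were measured and 11 were above the floor on both arrays, 7 of them with the higher signal in Ebf2-/-. The median log2 ratio of those 11 was 0.25; it stayed above 0 under quantile (0.15), lowess (0.23) and spike-in (0.08) scaling, and was -0.01 with a pseudocount of 50, 0.02 without a floor and 0.51 without _s_at, _x_at and _a_at probe sets. At least 2-fold higher were Gstt1 and Gstm2, 14.3% of the 14 measured, beside 6.30% of all genes. None was at least 2-fold lower, beside 3.46% of all genes, and with 14 genes that is near this share. Gstt1 (log2 ratio 1.43), Gstm2 (1.02), Gstm1 (0.78), Gstt3 (0.62) and Gstm5 (0.51) exceeded the spread of 0.44 between probe sets over all genes. All belong to the theta and mu classes. The other genes above the floor on both arrays lay within that spread by their brightest probe sets.

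Gstt1, a theta-class enzyme that acts on small halogenated compounds, read 106 in Ebf2+/- and 284 in Ebf2-/-, 2.69-fold higher. Gstt3 read 102 and 156, 1.53-fold higher. Gstt2 went the other way, with 42.5 in Ebf2+/- and 16.5, under the floor, in Ebf2-/-, at least 1.79-fold lower. The 4 theta genes, in the order Gstt3, Gstt1, Gstt4 and Gstt2, are direct neighbours in the RefSeq annotation of GRCm38.p6. Gstt3 and Gstt1, which adjoin, were both higher, and Gstt4 (3.63 and 0.57), between Gstt1 and Gstt2, was under the floor on both arrays. Each of the 4 has 1 probe set. Gstt2 was past 2-fold lower with spike-in scaling (log2 ratio -1.01), without a floor (-1.36) and with the array median as floor (-1.27).

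The mu class, which conjugates epoxides and many other electrophiles, is a cluster of 7 neighbouring genes in the order Gstm5, Gstm7, Gstm6, Gstm3, Gstm2, Gstm1 and Gstm4. Gstm2 read 456 in Ebf2+/- and 927 in Ebf2-/-, 2.03-fold higher, which is just past the reference size and under it with spike-in scaling (log2 ratio 0.85) or a pseudocount of 50 (0.95). The brightest probe set of Gstm1 read 329 and 563, 1.71-fold higher. Its other probe sets above the floor on both arrays read 284 and 578 (2.04-fold) and 43.7 and 74.7 (1.71-fold), so all 3 were higher, and the last probe set was above the floor in Ebf2-/- only (4.09 and 23.9). Gstm1 was past 2-fold with the mean over probe sets (log2 ratio 1.28) and without _s_at, _x_at and _a_at probe sets (1.03). Gstm5 read 902 and 1289, 1.43-fold higher. Gstm4, at the end of the cluster, did not share this, with 82.8 and 74.6. Gstm6 read 18.52 in Ebf2+/- and 5.16 in Ebf2-/-, and Gstm3 and Gstm7 were under the floor on both arrays by every probe set. The mu genes are close in sequence, and 2 of the 3 Gstm1 probe sets just given are of the type marked _x_at, which can bind related transcripts, so the Gstm1 and Gstm2 signals may not be independent.

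In the other classes, genes above the floor on both arrays showed little difference by their brightest probe sets. Gstp1, the pi-class enzyme, read 3616 in Ebf2+/- and 4312 in Ebf2-/-, 1.19-fold higher. Gsto1, the omega-class enzyme, read 612 and 518, 1.18-fold lower; its other probe set read 363 and 203, 1.79-fold lower. Gsta4, an alpha-class enzyme that conjugates the lipid peroxidation product hydroxynonenal, read 477 and 466. Gstk1, the kappa-class enzyme of mitochondria and peroxisomes, read 246 and 216. Gstz1, the zeta-class isomerase of tyrosine breakdown, read 85.1 and 89.0. Gsta3 stood at 26.4 in Ebf2+/- and 6.98 in Ebf2-/-, at least 1.11-fold lower, a bound set by how near it was to the floor. Gsta2, Gsto2 and Gstp3 were under the floor on both arrays, none above 5.04. The ratios of Gstp1, Gsta4, Gstk1 and Gstz1 lay within the spread of 0.44 between probe sets.

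Of the 3 microsomal GSTs only Mgst1 passed 2-fold. Mgst1, a membrane enzyme of the endoplasmic reticulum and the outer mitochondrial membrane, read 565 in Ebf2+/- and 1483 in Ebf2-/-, 2.62-fold higher. A second Mgst1 probe set was far under the floor on both arrays (3.48 and 0.37) and carries no information on the direction, but in a mean over both probe sets it turned the log2 ratio from 1.39 to -0.90. Mgst3 read 132 and 122, and Mgst2, which can also make leukotriene C, read 32.3 and 31.1. Both had ratios near 1.

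**Figure D2:**
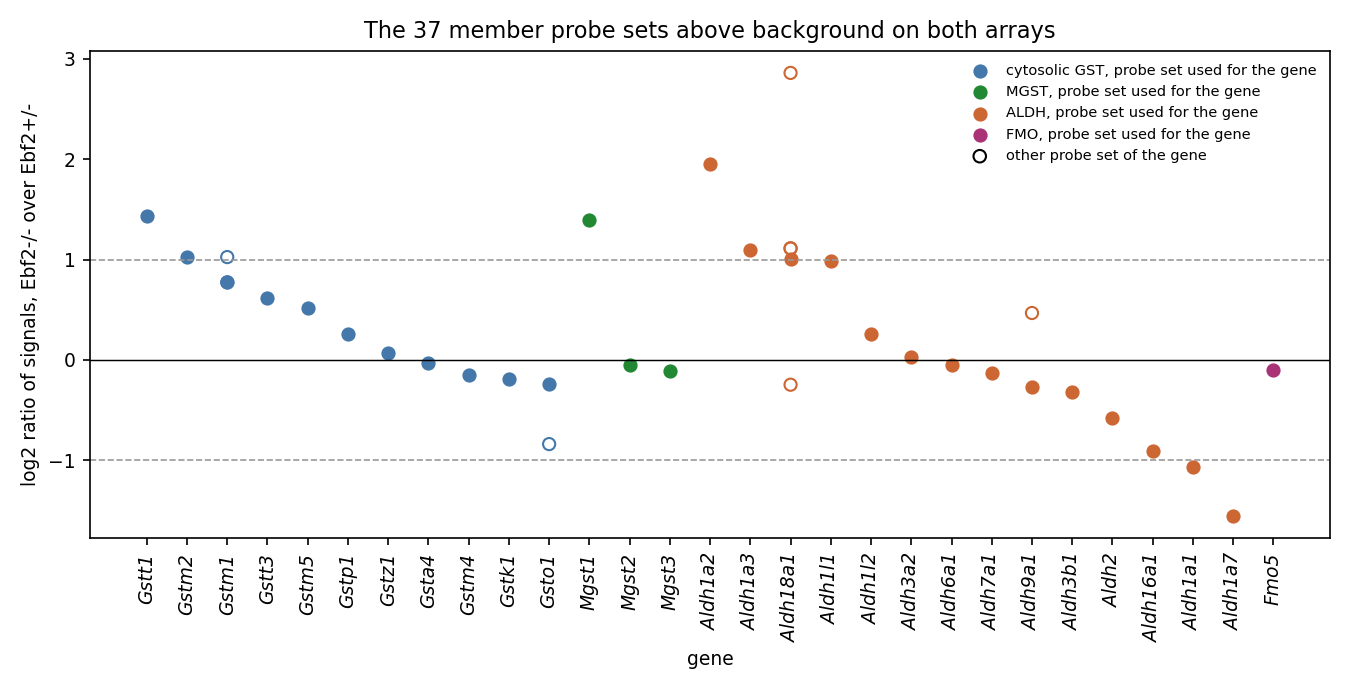
Log2 ratios (Ebf2-/- over Ebf2+/-) of the 37 member probe sets above the floor on both arrays, by gene and family; filled points are the probe set used for the gene, open points its other probe sets, and dashed lines mark 2-fold. Within the ALDH family the ratios run from -1.56 (Aldh1a7) to 1.95 (Aldh1a2), and the probe sets of Aldh18a1 spread from -0.25 to 2.86.

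The ALDH family had the widest spread. Of 20 genes, 19 were measured and 14 were above the floor on both arrays; the median log2 ratio of those 14 was -0.09, and it stayed below 0 under all 3 scalings. At least 2-fold higher were Aldh1a2, Aldh3b2, Aldh1a3 and Aldh18a1, and at least 2-fold lower Aldh1a7 and Aldh1a1. Of the 19 measured these were 21.1% and 10.5%, beside 6.30% and 3.46% of all genes. Among the 14 above the floor on both arrays, 3 were higher and 2 lower, 21.4% and 14.3%, beside 5.90% and 3.02%. All 4 genes of the Aldh1a group were past 2-fold, 2 in each direction. Their ratios within these single arrays show unequal change between genes of the same group.

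Aldh1a2, the retinal dehydrogenase that supplies most embryonic retinoic acid, read 34.7 in Ebf2+/- and 134 in Ebf2-/-, 3.87-fold higher, a ratio above that of 98.9% of the genes above the floor on both arrays. Aldh1a3, another retinal dehydrogenase, read 31.4 and 67.4, 2.14-fold higher. The other Aldh1a3 probe sets were near or under the floor, with 18.9 and 23.7 for one and 1.44 and 16.4 for the other, and averaging all 3 put Ebf2+/- under the floor and left a bound, a log2 ratio of at least 0.74. Aldh1a3 was under 2-fold with spike-in scaling (0.92) and with a pseudocount of 50 (0.53).

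Aldh1a1, the third retinal dehydrogenase, read 1023 in Ebf2+/- and 489 in Ebf2-/-, 2.09-fold lower. Aldh1a7, its close relative, read 1029 and 350.0, 2.94-fold lower, a ratio below that of all but 1.004% of the genes. Each has 1 probe set. The log2 ratio of Aldh1a1 was -0.99 with a pseudocount of 50 and that of Aldh1a7 -1.43. In the RefSeq annotation of GRCm38.p6 they lie side by side on chromosome 19 with no protein-coding gene between them, on opposite strands. Of the 2 annotated Aldh1a1 promoters, the second resembles that of Aldh1a7. The 150 bases before both starts are shown because these genes differed in the same direction, with their longest shared run of 65 bases in capitals (Aldh1a1 at chr19:20601818-20601967, plus strand; Aldh1a7 at chr19:20727557-20727706, minus strand).
Aldh1a1: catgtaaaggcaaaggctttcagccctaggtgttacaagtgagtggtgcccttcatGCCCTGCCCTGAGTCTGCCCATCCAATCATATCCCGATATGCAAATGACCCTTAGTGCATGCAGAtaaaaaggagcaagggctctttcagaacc
Aldh1a7: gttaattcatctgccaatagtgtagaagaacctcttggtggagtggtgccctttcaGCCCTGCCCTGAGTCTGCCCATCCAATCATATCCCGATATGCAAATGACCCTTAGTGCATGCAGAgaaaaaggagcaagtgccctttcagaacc
Without gaps, 94 of the 100 bases nearest the start were identical in both, and 108 of all 150; the other Aldh1a1 promoter shared no run longer than 8 bases with Aldh1a7. The genes are close relatives, so the 2 probe sets may read each other's RNA; their probe sequences were not compared. On these arrays all measured macrophage and leukocyte markers and most chondrocyte markers were lower as well, by the values given above, and their part in the Aldh1a1 and Aldh1a7 values was not tested.

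Aldh18a1 encodes the enzyme that starts proline synthesis from glutamate and is a member by name rather than by a role in detoxification. Its brightest probe set read 586 in Ebf2+/- and 1176 in Ebf2-/-, 2.01-fold higher. The other 4 probe sets read 216 and 466 (2.16-fold), 66.5 and 144 (2.16-fold), 68.1 and 495 (7.27-fold higher) and 53.3 and 44.9 (1.19-fold lower). Thus 4 of 5 probe sets were higher, 3 of them by nearly the same factor. All but the one with the largest ratio are of the _x_at type. The call was lost with spike-in scaling (log2 ratio 0.83) and with a pseudocount of 50 (0.95).

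Aldh3b2 was seen in Ebf2-/- only, with 47.5 against 16.9, at least 2.66-fold higher; a gene that passes the floor through 1 array alone has to differ, and with a pseudocount of 50 its log2 ratio was 0.54. Aldh1l1, which oxidises formyltetrahydrofolate in the cytosol, read 18.8 and 37.2, 1.99-fold higher, just short of the reference size and just above the floor in Ebf2+/-. Its mitochondrial counterpart Aldh1l2 read 392 and 469. Aldh16a1 read 84.4 and 44.9, 1.88-fold lower, and passed 2-fold with spike-in scaling (log2 ratio -1.09). Aldh2, the mitochondrial enzyme that clears acetaldehyde, read 1689 in Ebf2+/- and 1130.35 in Ebf2-/-, 1.49-fold lower; its other 4 probe sets were near or under the floor.

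Of the remaining ALDHs, those above the floor on both arrays differed little by their brightest probe sets. Aldh3a2, the fatty aldehyde dehydrogenase, read 198 in Ebf2+/- and 202 in Ebf2-/-. Aldh6a1, of valine breakdown, read 135 and 130.5. Aldh7a1, of lysine breakdown, read 669.8 and 613; dim probe sets turned its log2 ratio from -0.13 to 1.46 when all 3 were averaged. Aldh9a1, of carnitine synthesis, read 471 and 389 by its brighter and 165 and 229 by its other probe set, with opposite directions. Aldh3b1 read 51.3 and 41.2. Of the genes seen on 1 array only, Aldh1b1 (27.0 and 3.30) was at least 1.14-fold lower, and Aldh5a1 (13.3 and 24.9) and Aldh8a1 (5.88 and 25.9) were at least 1.40-fold and 1.45-fold higher. Aldh4a1, which breaks proline down, read 20.0 and 17.7, and Aldh3a1 (10.5 and 8.75) was under the floor on both arrays. None of these genes was past 2-fold with the values used here.

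Fmo1 had the largest ratio of all members. It read 10.6 in Ebf2+/-, under the floor, and 131 in Ebf2-/-, at least 7.33-fold higher, from a single probe set. With a pseudocount of 50 the log2 ratio was 1.57, and it was past 2-fold under all 8 alternatives. Those on the choice of probe set could not change it. Fmo4 (11.9 and 11.3) and Fmo2, which flank Fmo1 with no protein-coding gene between, were under the floor on both arrays; the brightest Fmo2 probe set read 8.68 and 21.5. Fmo5, which lies elsewhere in the genome, read 33.1 and 30.9. The bound on Fmo1 is limited by the Ebf2+/- floor, and the mesenchymal and adipocyte markers that were higher on the same array are given above; their part was not tested.

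**Figure D3:**
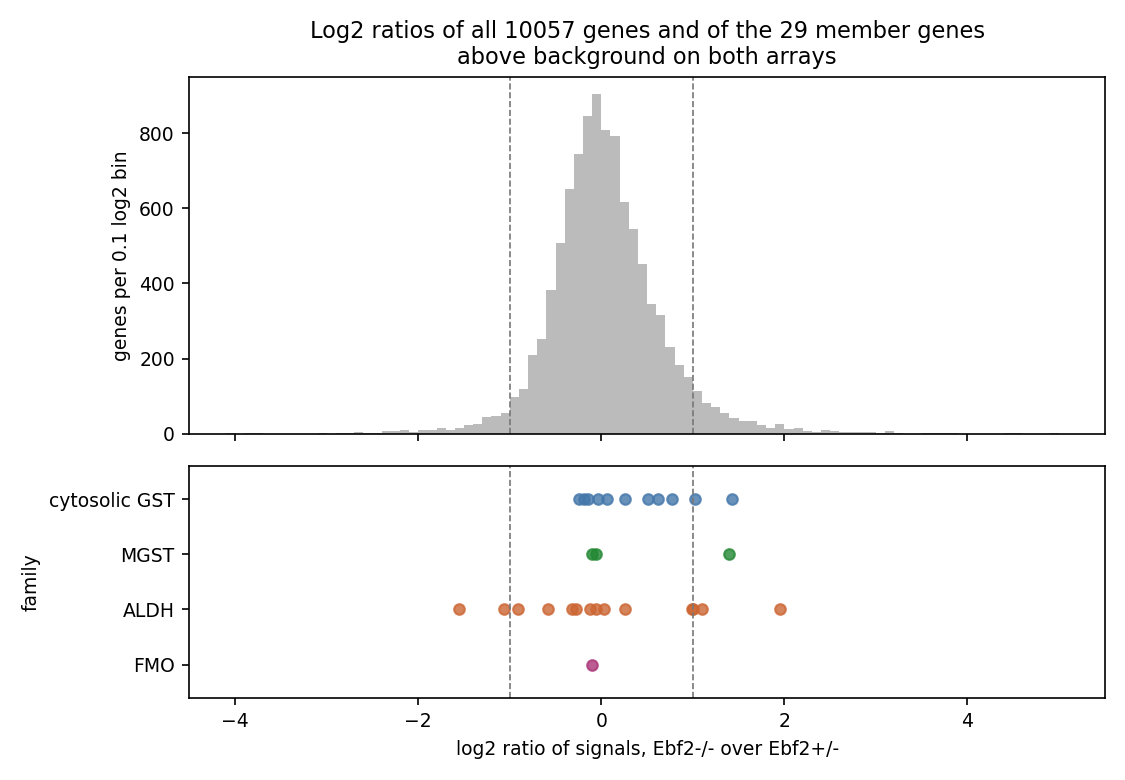
Top, histogram of the log2 ratio (Ebf2-/- over Ebf2+/-) of the 10057 genes above the floor on both arrays, in bins of 0.1; bottom, the 29 members above the floor on both arrays, by family, with dashed lines at 2-fold. The members lie on both sides of the centre, with Aldh1a2 (1.95) and Aldh1a7 (-1.56) at the ends; Fmo1 is not plotted because it was under the Ebf2+/- floor.

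Other genes of the same pathways were taken from 5 lists. Among the 13 measured genes of glutathione synthesis and recycling, 2 were at least 2-fold higher and 2 lower, 15.4% each beside the 6.30% and 3.46% of all genes; without _s_at, _x_at and _a_at probe sets these were 0 and 1. The 11 above the floor on both arrays had a median log2 ratio of 0.24. Gss, which completes glutathione synthesis, read 146 in Ebf2+/- and 62.6 in Ebf2-/-, 2.33-fold lower, and 1.80-fold lower by a second probe set. Ggct, an enzyme that breaks down gamma-glutamyl peptides, read 196 and 87.8, 2.23-fold lower. Anpep, a surface peptidase that can split cysteinyl-glycine, read 4.11 and 76.1, at least 4.27-fold higher. The subunits of the rate-limiting enzyme, Gclc (280 and 264) and Gclm (447 and 475), differed little. Gss and Ggct were under 2-fold with a pseudocount of 50 (log2 ratios -0.80 and -0.83), and Anpep was not (1.22).

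Of the 21 genes in the list of NRF2 regulators and other target genes, all were above the floor on both arrays, 0 were at least 2-fold higher and 1, or 4.76%, lower, beside 5.90% and 3.02% of genes above the floor on both arrays. Their median log2 ratio was -0.16, and 15 had the lower signal in Ebf2-/-, beside 5021 of all 10057 genes. The one past 2-fold was Nqo1, a quinone reductase widely used as an NRF2 reporter. It read 1359 in Ebf2+/- and 439 in Ebf2-/-, 3.10-fold lower and past 2-fold under all 8 alternatives. With 1 probe set far above the floor, its ratio could not change with the choice of probe set or floor. Txnrd1, the cytosolic thioredoxin reductase, read 888 and 539, and the exporter Abcc4 117 and 70.5. Nfe2l2 itself read 780 and 692.

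Among 19 measured genes of aryl hydrocarbon receptor signalling and cytochrome P450 enzymes, 0 were at least 2-fold higher, beside 6.30% of all genes. Lower was 1, or 5.26%, near the 3.46% of all genes. The 12 above the floor on both arrays had a median log2 ratio of -0.09. The gene past 2-fold was Ahrr, the repressor of the receptor, which read 80.7 and 27.4, 2.94-fold lower, but under 2-fold with a pseudocount of 50 (log2 ratio -0.76). The receptor Ahr read 508 and 984, 1.94-fold higher, and its target Tiparp 411 and 233, 1.76-fold lower, with all 3 Tiparp probe sets lower. A second Ahr probe set, near the floor, read 22.1 on both arrays. The mean over both Ahr probe sets gave a log2 ratio of 0.48 against 0.95. Of 12 measured genes for other conjugating enzymes and reductases, 1 was at least 2-fold higher and 1 lower. These were 8.33% each, beside 6.30% and 3.46% of all genes. Xanthine dehydrogenase, Xdh, read 22.7 and 55.2 (2.44-fold higher), Inmt 48.4 and 9.46 (at least 2.03-fold lower) and the nicotinamide methyltransferase Nnmt 318 and 598; Xdh and Inmt stood near the floor and were under 2-fold with that pseudocount.

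Retinoid genes are the pathway of Aldh1a1, Aldh1a2 and Aldh1a3. Of 17 measured, 3 were at least 2-fold higher, 17.6% beside the 6.30% of all genes. None was at least 2-fold lower, beside 3.46% of all genes, and with 17 genes that is near this share. Without _s_at, _x_at and _a_at probe sets 1 was higher. The 15 above the floor on both arrays had a median log2 ratio of 0.34. Crabp1, which binds retinoic acid in the cytosol, read 58.0 in Ebf2+/- and 495 in Ebf2-/-, 8.54-fold higher. Adh1, an alcohol dehydrogenase that can oxidise retinol, read 78.1 and 538, 6.89-fold higher. The retinoic acid receptor Rara read 19.4 and 67.8, 3.49-fold higher, from just above the floor, and fell under 2-fold with a pseudocount of 50 (log2 ratio 0.76). Each of these 3 rests on 1 probe set. Rdh10, the main embryonic retinol dehydrogenase, read 222 and 131, 1.69-fold lower, and Cyp26b1, which breaks retinoic acid down, 159.7 and 212.

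Promoter sequences of 300 bases (250 before and 50 after the annotated start) came from RefSeq, GRCm38.p6. By gene ID, 38 of the 47 genes had a promoter sequence, with 50 promoters. The core of the ARE, TGACNNNGC, was searched on both strands and occurred in 6 of the 50, 12%, beside 12.4% of all 32851 promoters in the table. The core of the EBF consensus, CCCNNGGG, which is its own reverse complement, occurred in 7 of the 50, 14%, beside 13.7% of all. The longer consensus, this core flanked by T and A, was searched first and occurred in 0 of the 50, beside 0.904% of all; the shorter core was chosen after that result was seen. The ARE and EBF core shares were close to those of all promoters, and a match describes letters, not a bound site. Promoters of Fmo1, Aldh1a3 and Aldh3b2 were not analysed here. Among the promoters of the other members past 2-fold, that of Aldh1a2 and 1 of the 2 of Mgst1 held an ARE core, and that of Aldh1a2 also held 2 matches to the EBF core. The 150 bases before the start of Aldh1a2 and of this Mgst1 promoter are shown with the ARE core match in capitals. Matches to the EBF core are not marked. The ARE core match is on the gene's own strand for Aldh1a2 (chr9:71215639-71215788, plus strand) and on the opposite strand for Mgst1 (chr6:138140377-138140526, plus strand).
Aldh1a2: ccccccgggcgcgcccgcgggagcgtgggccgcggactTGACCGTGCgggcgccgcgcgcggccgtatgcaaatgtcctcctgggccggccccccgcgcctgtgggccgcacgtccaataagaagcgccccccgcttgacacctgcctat
Mgst1: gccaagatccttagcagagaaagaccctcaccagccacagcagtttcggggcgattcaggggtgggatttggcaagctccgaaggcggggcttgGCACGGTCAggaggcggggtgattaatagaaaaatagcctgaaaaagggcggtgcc

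**Figure D4:**
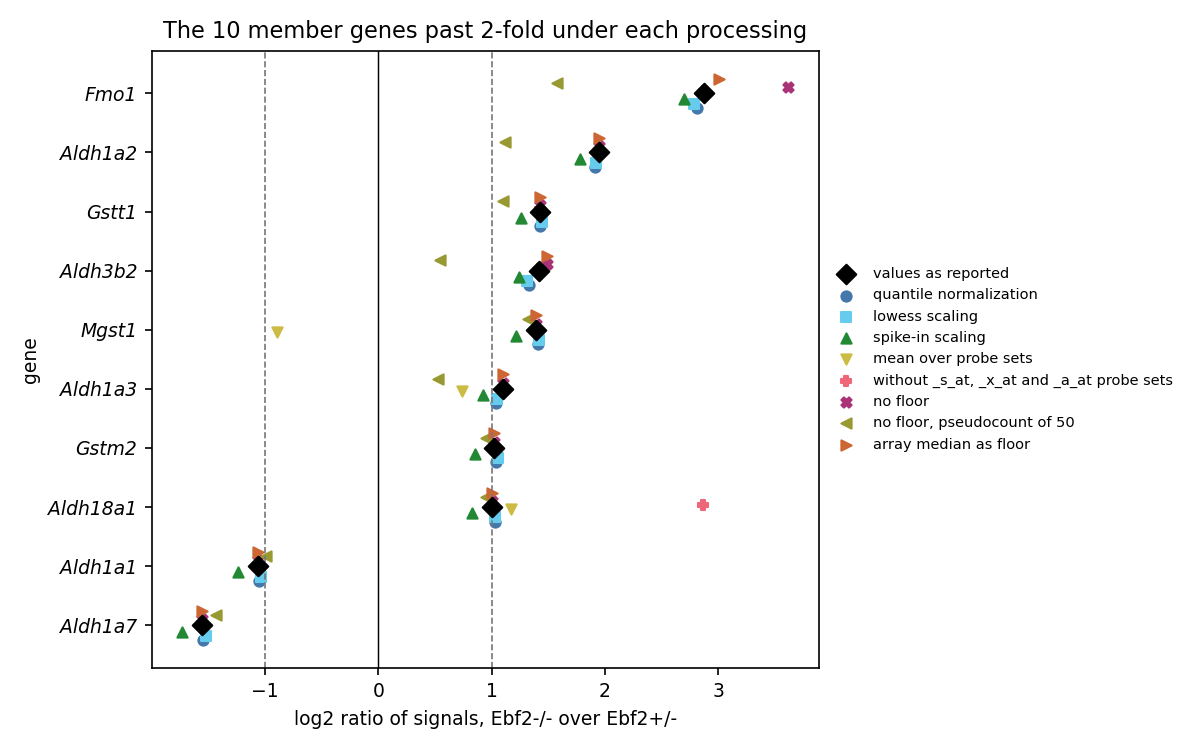
Log2 ratios (Ebf2-/- over Ebf2+/-) of the 10 members past 2-fold, as reported (diamonds) and under each processing alternative that gave a value (other symbols); dashed lines mark 2-fold. Fmo1, Aldh1a2, Gstt1 and Aldh1a7 stayed past 2-fold throughout, but each has 1 probe set, which the alternatives on probe sets could not change. Gstm2, Aldh1a3, Aldh3b2 and Aldh1a1 had values on both sides of the line. Aldh18a1 ran from 0.83 to 2.86, and Mgst1 changed sign with the mean over probe sets.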

How the data were processed

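The authors deposited MAS5 signals, a linear intensity per probe set of the Affymetrix mouse genome array, for 1 array per genotype; the submitters' processing notes name MAS5, with no version. Without the lowest and highest 2% of values the mean was 99.97 on both arrays, so the deposited intensities share 1 scaling target, and a shift common to most genes would not show. Symbols came from the platform annotation (34958 probe sets with 1 symbol, 932 with several, 9211 with none listed). Each gene was represented by its brightest probe set (mean log2 signal of both arrays). A gene was measured if above the floor on at least 1 array; a value under the floor was replaced by it for the log2 ratio, and such folds are written "at least". No fold is given where the signal did not exceed the other array's floor.

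No p-value was computed. All 47 gene IDs matched RefSeq (GRCm38.p6) and 0 symbols changed. Every measured member is named, and from each pathway list the 3 largest ratios; other list members were chosen after their values were seen. Members and lists were chosen with earlier results of these data known. Alternatives were quantile, lowess and spike-in scaling, the mean over probe sets, no _s_at, _x_at or _a_at probe sets, no floor, a pseudocount of 50, and the array median as floor. Scripts used Python 3.11.15 and statsmodels 0.14.6 and were tested on simulated data.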

Additional observations from a re-analysis of the deposited data

How the results depend on the processing

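Counts over the members and all genes, the cytosolic GST and ALDH medians, and the named members and top pathway genes were recomputed under 8 alternatives, as were, added after seeing the data, the counts of the 5 pathway lists. Marker lists and motif shares were not. Members at least 2-fold higher numbered 8 as reported, 5 with spike-in scaling and 4 with a pseudocount of 50; members at least 2-fold lower numbered 2, and 4 with spike-in scaling, 1 with the pseudocount, 3 with the array median as floor and 8 without a floor. Over all genes, 742 higher and 408 lower became 3041 and 2616 without a floor and 280 and 134 with the pseudocount; spike-in scaling gave 528 and 625. The mean over probe sets reversed Mgst1 (log2 ratio -0.90) and Aldh7a1 (1.46), because probe sets under the floor entered it. Fmo1, Aldh1a2, Gstt1, Aldh1a7, Adh1 and Nqo1 stayed past 2-fold in the same direction under all 8. Each has 1 probe set, of the plain _at type, so averaging or dropping probe sets could not change it. Removing the floor or using the array median could change Fmo1 alone, since the others were above the floor on both arrays. Mgst1 stayed past 2-fold under 6 of the 7 that gave it a value. Without _a_at probe sets Mgst1 was under the floor. The median log2 ratio of cytosolic GSTs, 0.25 as reported, ranged from -0.01 (pseudocount) to 0.51 (without _s_at, _x_at and _a_at probe sets), and that of ALDHs, -0.09, from -0.27 (spike-in scaling) to -0.01 (mean over probe sets). Without a floor, genes at least 2-fold lower numbered 4 of 22 in the P450 list and 7 of 19 among other conjugating enzymes. As reported they numbered 1 each. Beside them, 2616 of all 18194 genes were at least 2-fold lower without a floor. The array median, listed as a higher floor, was lower than the floor used (16.3 and 17.7). No paired analysis was possible because there is 1 array per genotype. Signals near the floor limit Fmo1, Aldh3b2, Aldh1l1, Aldh1a3 and Rara.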
